A study of Mus musculus with 13 samples.

Results

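The genes described here encode the proteins that fill the secretory granules of mouse eosinophils: Prg2 and Prg3, the major basic proteins, Epx, the eosinophil peroxidase, and Ear1, Ear2 and Ear6, members of the eosinophil-associated ribonuclease family. They were taken by name from the expression table and make up 6 of its 41743 genes. The choice was made with earlier results of these data known, so it was not blind to their values. RNA had been sequenced from eosinophils sorted as CD11b+ Siglec-F+ cells from adult mice. Thymus, spleen and lung of wild-type (WT) C57BL/6N mice gave 3 libraries each. The other 4 libraries came from the thymus of Rag-deficient (Rag-KO) mice, in which thymocytes stop before they express a T cell receptor. Of these, 2 were made 10 days after an injection of hamster IgG (Rag-KO + control, replicate 1 Rag2-/- and replicate 2 Rag1-/-), and 2 were made 10 days after an injection of anti-CD3 antibody, which drives thymocytes onward to the CD4+ CD8+ stage (Rag-KO + anti-CD3, both Rag2-/-). Cells were released from thymus and lung with enzymes and from spleen by mashing, and an effect of the organ cannot be told apart from one of its preparation. The labels do not say whether libraries of a group came from separate mice, and p-values therefore measure only the spread between these libraries, which may be technical.

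Eosinophils make most of their granule protein while they mature in the bone marrow, and store it in specific granules with a crystalline core of major basic protein and a surrounding matrix that holds the peroxidase and the ribonucleases. Mature eosinophils in blood and tissue carry the stored proteins while their mRNA for them declines. In the mouse the ribonuclease genes have multiplied into a large family of near copies, some of which are also transcribed in macrophages and monocytes.

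Libraries held between 4765122 and 6431540 reads, recovered from the deposited values, with a median of 5713043. Values are RPKM, read counts scaled to gene length and library depth, so that levels of different genes are compared per length. The sorted cells expressed Alox15, Ccr3, Siglecf and Il5ra in all 13 libraries, and the summed level of the eosinophil surface and identity list lay between 2448 and 5207 RPKM. The deleted Rag gene was at 0.024 to 0.222 RPKM in the 4 Rag-KO libraries, against 0.776 to 3.29 RPKM for Rag1 and 0.288 to 0.860 RPKM for Rag2 in WT thymus. Which part of the gene these few reads came from is not known, and they do not check the genotype. Some libraries stood apart. Mitochondrial genes made up 22.0% of the summed RPKM of WT spleen replicate 3 against 1.60% to 6.02% elsewhere. Its deviation from the group mean correlated, across 9763 genes, with those of WT thymus replicate 3 (r = 0.57), WT lung replicate 3 (r = 0.42) and Rag-KO + control replicate 2 (r = 0.46), and for other libraries r lay between -0.93 and 0.06. In groups of 2 libraries the deviations mirror each other. Results are also given without these 4 libraries, an omission that by construction narrows the spread within groups. In bulk RNA, fewer cells of a type and less RNA per cell cannot be told apart.

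Prg2 and Prg3 are neighbours on chromosome 2 (mm10, forward strand), Prg2 (ENSMUSG00000027073) at chr2:84980461-84983632 and Prg3 (ENSMUSG00000027072) at chr2:84988215-84993886. Epx (ENSMUSG00000052234) lies at chr11:87864000-87875536 on the reverse strand. The ribonuclease genes lie on chromosome 14, with Ear1 (ENSMUSG00000072601) at chr14:43818765-43875517 on the reverse strand, Ear2 (ENSMUSG00000072596) at chr14:44102654-44103534 and Ear6 (ENSMUSG00000062148) at chr14:51853699-51854643, both on the forward strand. Of aligned transcript bases, 96.9% were identical between Ear1 and Ear2, 89.5% between Ear1 and Ear6, and 75.2% between Prg2 and Prg3. Of all stretches of 100 bases, 23.9% in the Ear1 transcript and 13.9% in the Ear2 transcript also occurred in another gene, Ear10 and the pseudogenes Ear-ps9 and Ear-ps2 among them, whereas Prg2, Prg3, Epx and Ear6 shared none. Reads may thus be divided between Ear1, Ear2 and their copies, and their separate levels are uncertain, while those of Ear6 are not affected at this length.

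The upstream sequences are shown because Ear1, Ear2 and Ear6 have related promoters but did not share 1 pattern of expression, and because Prg3 and Epx lay far below Prg2 in most libraries. RefSeq (GRCm38.p6) gave a promoter for 5 of the 6 genes. The 150 bases printed for Prg3 (chr2:84988065-84988214) and Epx (chr11:87875537-87875686, reverse strand) end at the transcription start. The 150 bases for Ear1 (chr14:43819709-43819858, reverse strand), Ear2 (chr14:44102435-44102584) and Ear6 (chr14:51853549-51853698) end 70 bases before the RefSeq start, outside all annotated exons, that of Ear1 within an intron of a longer annotated Ear1 transcript. All are read 5′ to 3′, and capitals mark a GATA motif (GATAA), a C/EBP motif (TTNNGNAA) or a TATA box (TATAAA), searched on both strands. The GATA and C/EBP matches lie on the opposite strand, so that the capitals show their reverse complement.
Prg3: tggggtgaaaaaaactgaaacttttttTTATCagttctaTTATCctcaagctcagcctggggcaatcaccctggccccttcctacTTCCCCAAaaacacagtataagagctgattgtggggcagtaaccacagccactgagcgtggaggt
Epx: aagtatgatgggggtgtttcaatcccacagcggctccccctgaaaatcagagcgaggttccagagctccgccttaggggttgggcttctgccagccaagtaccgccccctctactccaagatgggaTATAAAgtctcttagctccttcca
Ear1: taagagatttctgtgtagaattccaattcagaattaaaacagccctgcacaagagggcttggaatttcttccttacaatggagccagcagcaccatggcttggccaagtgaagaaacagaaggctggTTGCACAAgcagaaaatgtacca
Ear2: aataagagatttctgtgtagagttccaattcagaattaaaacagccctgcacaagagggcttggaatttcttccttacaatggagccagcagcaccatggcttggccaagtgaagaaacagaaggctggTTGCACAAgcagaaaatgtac
Ear6: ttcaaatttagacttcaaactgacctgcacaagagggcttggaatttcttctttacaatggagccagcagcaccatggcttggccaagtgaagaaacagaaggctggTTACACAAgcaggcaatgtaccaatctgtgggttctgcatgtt

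Over 250 bases before the start, 99.2% of aligned bases were identical between Ear1 and Ear2, 92.6% between Ear1 and Ear6 and 93.4% between Ear2 and Ear6. The C/EBP motif of all 3 ribonuclease genes lay in the same sequence, at 92 bases before the start in Ear1, 90 in Ear2 and 112 in Ear6, and read TTGCACAA in the first pair and TTACACAA in Ear6. Prg3 held the same kind of motif at 65 bases before the start, together with a pair of GATA motifs at 123 and 111 bases. Such matches are common. The C/EBP motif occurred in 36.9% of 27025 promoters of this length, the GATA motif in 23.0% and the TATA box in 13%, so a match is a description and not a site.

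Among WT organs, Prg2 mRNA was highest in eosinophils of the thymus, 8.10 times the mean of spleen and 17.1 times that of lung. Prg2, which encodes the main protein of the granule core, was found at 925, 631 and 716 RPKM in WT thymus replicates 1, 2 and 3. In WT spleen it was found at 41.6, 32.9 and 206 RPKM, and in WT lung at 50.8, 45.2 and 36.8 RPKM. All thymus libraries lay above all spleen and lung libraries, and the highest spleen value was that of replicate 3. The means were 757 ± 151 RPKM in thymus, 93.5 ± 97.4 RPKM in spleen and 44.3 ± 7.08 RPKM in lung (SD, n = 3 each). Prg2 ranked between 47th and 69th among the detected genes of the thymus libraries, between 240th and 1736th in spleen and between 1069th and 1441st in lung.

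Prg3, the paralogue of Prg2, ran the other way in order but not beyond its spread. It was found at 0.969, 1.87 and 4.92 RPKM in WT thymus, at 3.79, 3.32 and 32.3 RPKM in spleen and at 9.12, 8.07 and 4.58 RPKM in lung. The thymus range overlapped both others, through thymus replicate 3. The means were 2.58 ± 2.07 RPKM in thymus, 13.1 ± 16.6 RPKM in spleen and 7.26 ± 2.38 RPKM in lung, and the thymus values rest on 5, 9 and 30 reads.

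Epx, whose product is stored in the granule matrix, was low in every WT organ. It was found at 1.09, 2.27 and 6.01 RPKM in thymus, at 1.08, 0.617 and 0.0780 RPKM in spleen and at 0.708, 0.271 and 0.281 RPKM in lung. Each thymus library lay above each spleen and lung library, although thymus replicate 1 and spleen replicate 1 were nearly level. The means were 3.13 ± 2.57, 0.592 ± 0.502 and 0.420 ± 0.249 RPKM in thymus, spleen and lung. The spleen and lung values came from 1 to 17 reads per library, and Epx reached 1 RPKM in all 3 thymus libraries and in 1 of the other 6, so that it passed the filter on low values through the group where it was highest.

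The ribonuclease genes divided. Ear1 and Ear2, whose products degrade RNA and act against viruses and as attractants of dendritic cells, were lowest in thymus. Ear1 was found at 0.756, 1.08 and 17.5 RPKM in WT thymus, at 34.2, 36.2 and 111 RPKM in spleen and at 74.2, 30.7 and 59.0 RPKM in lung. Ear2 was found at 1.79, 2.74 and 13.6 RPKM in thymus, at 24.0, 29.6 and 148 RPKM in spleen and at 64.3, 28.9 and 178 RPKM in lung. For both genes every thymus library lay below every spleen and lung library, with thymus replicate 3 the nearest to them. The means in thymus, spleen and lung were 6.43 ± 9.56, 60.5 ± 43.9 and 54.7 ± 22.1 RPKM for Ear1 and 6.05 ± 6.58, 67.3 ± 70.2 and 90.3 ± 77.7 RPKM for Ear2.

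Ear6, a less studied member of the same family, had the opposite order. It was found at 40.3, 49.2 and 43.6 RPKM in WT thymus, at 12.3, 10.0 and 40.2 RPKM in spleen and at 10.8, 7.91 and 15.0 RPKM in lung. All thymus libraries lay above the others, but spleen replicate 3 was nearly level with the lowest of them. The means were 44.4 ± 4.49, 20.8 ± 16.8 and 11.2 ± 3.57 RPKM in thymus, spleen and lung.

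**Figure D1:**
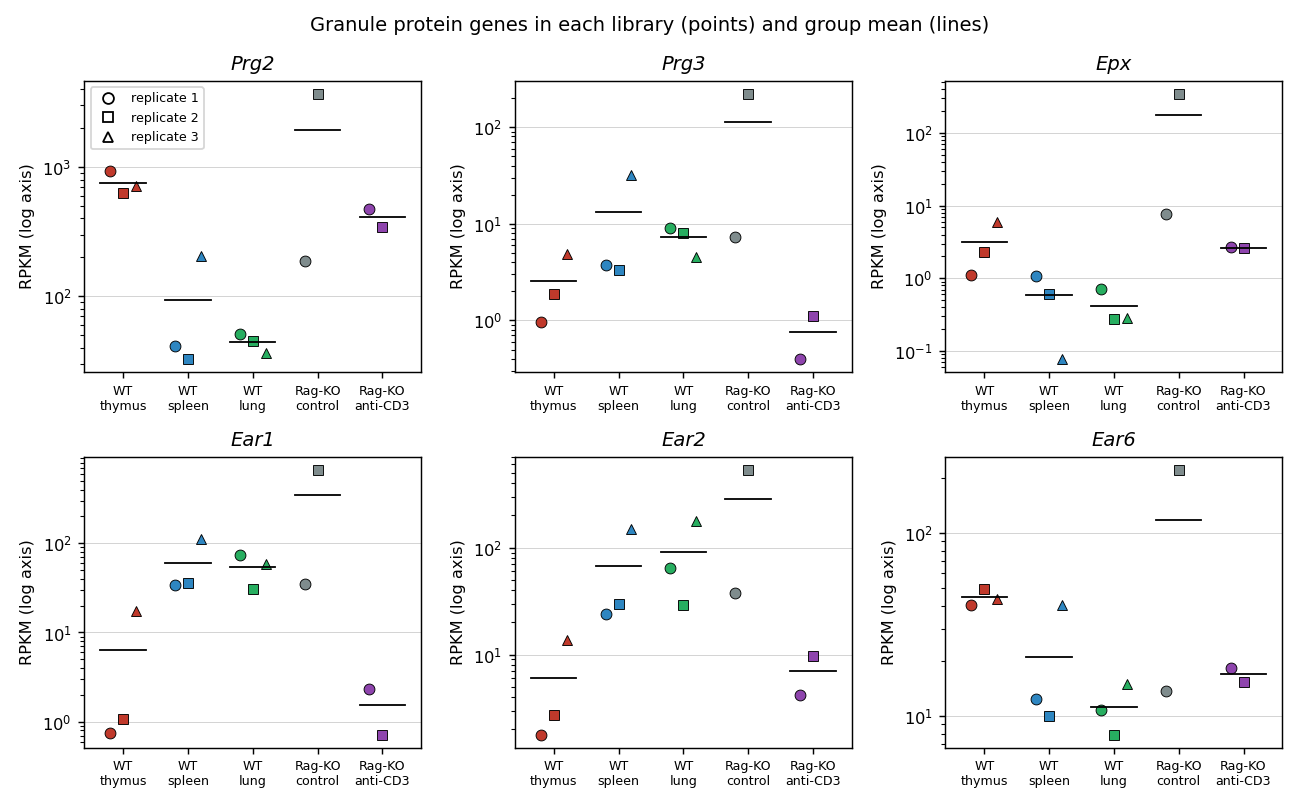
RPKM of the 6 granule protein genes in each of the 13 libraries on a log axis, by group, with the symbol giving the replicate and the line the group mean. Prg2 and Ear6 were highest and Ear1 and Ear2 lowest in thymus among WT organs, and Rag-KO + control replicate 2 held the highest value of all 6 genes.

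Groups were compared with limma on log2(RPKM + 1). Tests were two-sided with Benjamini-Hochberg adjustment over every gene tested, and a call required an adjusted p below 0.05 together with a log2 fold change of more than 1 in either direction. The pseudocount makes fold changes of low genes such as Epx smaller than the ratio of their levels. All 6 genes passed the filter on low values. The median over all genes was itself shifted, by 0.25 in thymus over spleen and 0.20 in thymus over lung (log2), and fold changes are to be read against those shifts.

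In WT thymus over WT spleen, Prg2 was called higher, with a log2 fold change of 3.48 (SE 0.58, adjusted p = 0.0148 in limma). That was 1 of the 6 genes, where 2.29% of 9096 genes were called in either direction and 1.7% were called higher. Ear1 and Ear2 had log2 fold changes of -3.70 and -3.18 (adjusted p = 0.0624 and 0.132), and Epx and Ear6 of 1.24 and 1.31 (adjusted p = 0.266 and 0.290). The groups did not overlap for Prg2, Epx and Ear6 on the high side, as for 16.4% of genes, nor for Ear1 and Ear2 on the low side, as for 4.56% of genes. Libraries with the same replicate number deviated together across the WT organs. Replicates 1 and 2 did so with each other as well, so the number is not clearly shown to mark pairs. When it entered as a block the call of Prg2 (adjusted p = 0.0161) was joined by Ear1 (adjusted p = 0.0156) and Ear2 (adjusted p = 0.0031), where 3.33% of genes were called. Without the 4 libraries that stood apart, Prg2 and Ear6 were called higher and Ear1 and Ear2 lower, where 5.76% of genes were called. The call of Prg2 was lost when any 1 thymus library, spleen replicate 1 or spleen replicate 2 was left out (adjusted p from 0.050 to 0.107). Without thymus replicate 3 the call passed to Ear1 (adjusted p = 0.0163, 0.679% of genes), and without spleen replicate 3 Ear6 was called as well (log2 fold change 1.90, adjusted p = 0.0052, 3.54% of genes).

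In WT thymus over WT lung, Prg2 was called higher and Ear1 lower, 2 of the 6 genes where 3.24% of genes were called, 1.91% higher and 1.33% lower. The log2 fold change of Prg2 was 4.06 (SE 0.58, adjusted p = 0.0047 in limma). That of Ear1 was -3.68 (SE 0.85), at an adjusted p of 0.050 that lay just under the threshold. It was lost in 14 of 22 alternatives, among them the omission of any 1 lung library, of thymus replicate 1 or 2, and of spleen replicate 1 or 2 (adjusted p from 0.0660 to 0.228). Ear2 (log2 fold change -3.72, adjusted p = 0.0566) and Ear6 (1.93, adjusted p = 0.0616) lay just outside it. The groups did not overlap for Prg2, Epx and Ear6 on the high side, as for 22.9% of genes, nor for Ear1 and Ear2 on the low side, as for 7.55% of genes. With the replicate block, Ear2 (adjusted p = 0.0016) and Ear6 (adjusted p = 0.0267) were called as well, which made 4 of 6 where 5.08% of genes were called. Both were also called without spleen replicate 3 (adjusted p = 0.0127 and 0.0014, 7.29% of genes), which enters the shared estimate of spread. Without the 4 libraries 5 of 6 were called, Prg2 and Ear6 higher and Prg3, Ear1 and Ear2 lower, where 8.38% of genes were called.

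No granule gene was called between WT lung and WT spleen in limma, where 0.704% of genes were called. The count was 0 also at an unadjusted p under 0.05 with the same fold limit (3.01% of genes) and in a voom fit of the recovered reads (0.87% of 4021 genes). The 95% intervals of the log2 differences were wide, from -1.88 to 0.73 for Prg2 and from -1.44 to 2.51 for Ear2, so that these organs are not shown to be alike. With the 4 libraries omitted, Prg3 was called higher in lung (log2 fold change 1.07, adjusted p = 0.0358), 1 of 6 where 2.07% of genes were called.

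**Figure D2:**
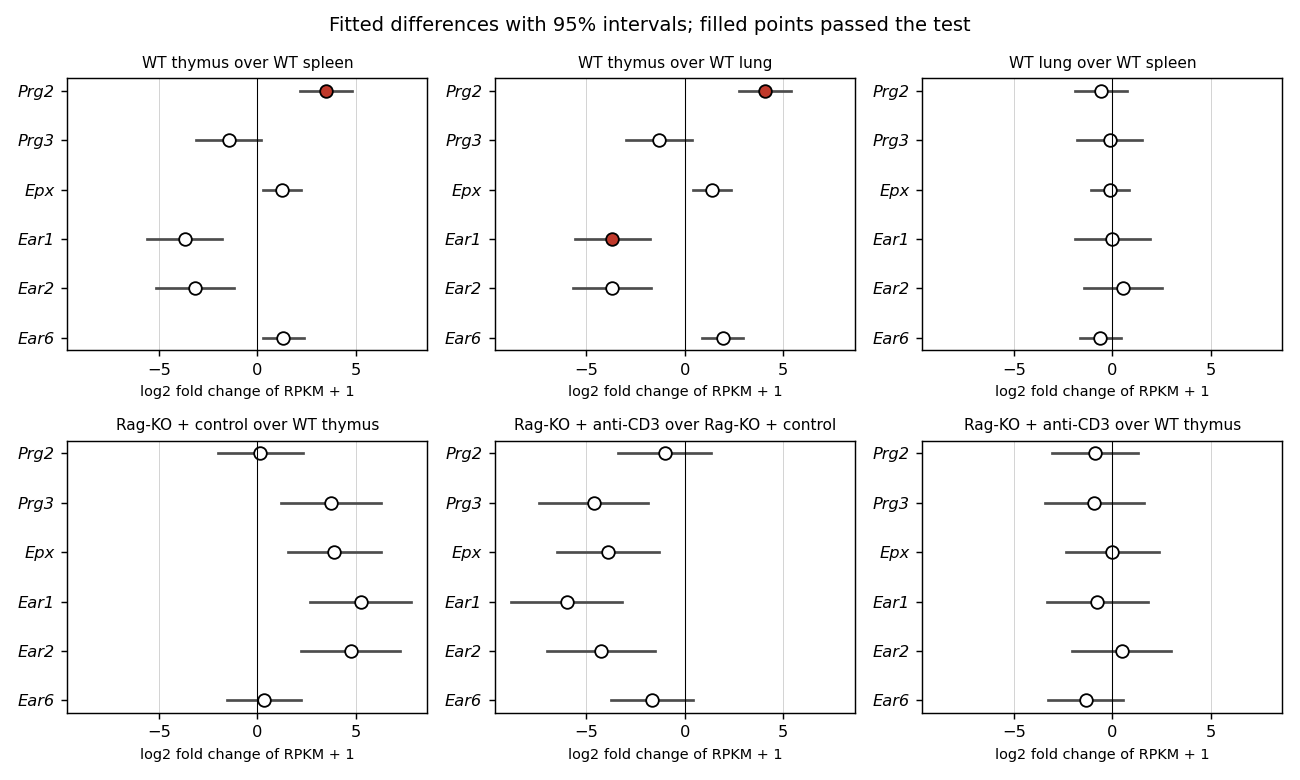
Fitted log2 fold changes of RPKM + 1 for the 6 genes in 6 comparisons, with 95% intervals as lines, and filled points for genes that passed the test. The filled points are Prg2 over spleen and over lung and Ear1 below lung. In lung over spleen and in anti-CD3 over WT thymus all intervals cover 0.

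The Rag-KO groups ask whether thymic eosinophils differ when thymocytes are arrested early and when anti-CD3 drives them onward. The 2 control libraries were far apart. Prg2 was found at 188 RPKM in Rag-KO + control replicate 1 and at 3648 RPKM in replicate 2, against 477 and 345 RPKM after anti-CD3. Epx was found at 7.64 and 340 RPKM in the control libraries and at 2.69 and 2.60 RPKM after anti-CD3. The anti-CD3 libraries lay between the control libraries for Prg2 and below both for Epx.

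The remaining genes fell into the same 2 kinds. Prg3 was found at 7.27 and 219 RPKM in the control libraries and at 0.401 and 1.11 RPKM after anti-CD3, the latter from 2 and 6 reads. Ear1 was found at 34.6 and 662 RPKM in the control libraries and at 2.34 and 0.719 RPKM after anti-CD3. For both genes each control library was higher than each anti-CD3 library and than each WT thymus library.

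Ear2 followed Ear1. It was found at 37.5 and 532 RPKM in the control libraries and at 4.23 and 9.74 RPKM after anti-CD3. Ear6 was found at 13.7 and 221 RPKM in the control libraries and at 18.3 and 15.4 RPKM after anti-CD3, so that its anti-CD3 libraries lay between the control libraries. For Ear2 the anti-CD3 values lay within the range of WT thymus, and for Ear6 and Prg2 they lay below all WT thymus libraries.

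Rag-KO + control over WT thymus gave no called granule gene in limma (1.09% of 9763 genes were called). The count was 4 at an unadjusted p under 0.05 (5.1% of genes) and 0 with voom (0.796% of 4399 genes). The log2 fold changes were 5.24 for Ear1 (SE 1.18, adjusted p = 0.0635), 4.74 for Ear2 (adjusted p = 0.0892), 3.90 for Epx (adjusted p = 0.160) and 3.73 for Prg3 (adjusted p = 0.232), and the groups did not overlap for these 4, as for 13.4% of genes on the high side. For Prg2 and Ear6 they were 0.15 and 0.34, with the control libraries on both sides of the thymus range. Without the 4 libraries, the control group is the 1 Rag2-/- library, which is then assumed to vary like the others. All 6 genes were called in that fit, where 4.36% of genes were called. Prg2 (log2 fold change -2.02, adjusted p = 0.0017) and Ear6 (-1.63, adjusted p = 0.0025) were lower than in WT thymus and Prg3, Epx, Ear1 and Ear2 higher, with log2 fold changes of 1.80, 1.72, 4.22 and 3.57. With the Rag2-/- library omitted in its place, 4 genes were called higher (Prg3, Epx, Ear1 and Ear2, with log2 fold changes from 6.09 to 7.35) where 1.74% of genes were called, and with the Rag1-/- library omitted alone 0 were called (0.156%). Ear1 was called also without thymus replicate 3 (adjusted p = 0.0220, 1.01% of genes), and Ear1 and Ear2 without spleen replicate 3 (adjusted p = 0.0384 and 0.0392, 2.42% of genes).

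Rag-KO + anti-CD3 over Rag-KO + control likewise gave no called granule gene in limma (0.133% of genes were called). The count was 4 at an unadjusted p under 0.05 (3.64% of genes) and 0 with voom, which called 0 genes in all (0%). This comparison shares its control libraries with the one before. The log2 fold change was -6.00 for Ear1 (SE 1.29, adjusted p = 0.138), -4.63 for Prg3 (adjusted p = 0.312), -4.26 for Ear2 (adjusted p = 0.392) and -3.90 for Epx (adjusted p = 0.418). These 4 genes did not overlap between the groups, as 22.3% of genes did not on the low side. With the 4 libraries omitted, Prg3, Ear1 and Ear2 were called lower (adjusted p = 0.0080, 0.0047 and 0.0332), where 1.75% of genes were called. With the Rag1-/- library left out alone 0 of the 6 were called (0.0208%), and with the Rag2-/- control library left out alone Prg3, Epx, Ear1 and Ear6 were called lower (adjusted p from 0.00078 to 0.0323), where 0.936% of genes were called.

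Rag-KO + anti-CD3 over WT thymus gave no called granule gene in limma (0.0819% of genes were called). The count was 0 at an unadjusted p under 0.05 (1.2% of genes) and with voom (0.0909%). The log2 fold changes lay between -1.35 for Ear6 and 0.49 for Ear2. Their 95% intervals reached from -3.24 to 0.55 for Ear6 and from -3.33 to 1.80 for Ear1, so that these groups are not shown to be alike. Prg2 and Ear6 were lower in both anti-CD3 libraries than in any WT thymus library, as were 16.2% of genes. Omission of the 4 libraries gave a call for Ear6, which was lower (log2 fold change -1.36, adjusted p = 0.0083), where 1.4% of genes were called.

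Against the peripheral WT organs, Epx was called higher in Rag-KO + control over lung (log2 fold change 5.27, SE 1.09, adjusted p = 0.0395 in limma), 1 of 6 where 1.22% of genes were called and 0.563% were called higher. However, Epx reached 1 RPKM in no lung library. It passed the filter only through other groups, among them the control group where it was highest, and its calls over lung carry no weight as a result. Both control libraries were above all lung libraries for Prg2 and Epx, as for 24.3% of genes. The call was lost when any 1 library other than Rag-KO + control replicate 1 or WT spleen replicate 3 was omitted (adjusted p from 0.0541 to 0.139), and without Rag-KO + control replicate 2 the difference was 2.62. With voom 0 were called (0.909%). Without the 4 libraries, Prg2 and Epx were called higher (log2 fold changes 1.95 and 2.55), where 6.38% of genes were called.

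Over spleen, Rag-KO + control gave 0 of 6 in limma (0.922% of genes were called), 2 at an unadjusted p under 0.05 (7.25%) and 0 with voom (1.02%). Epx had a log2 fold change of 5.14 (adjusted p = 0.0503) and was above all spleen libraries in both control libraries, as were 19.2% of genes. Without Rag-KO + control replicate 1, Prg2, Epx and Ear6 were called higher (adjusted p from 0.00018 to 0.0202) where 1.3% of genes were called, and without spleen replicate 3 Prg2 was (adjusted p = 0.0445, 1.56% of genes). When the 4 libraries were omitted, Prg2 and Epx were called higher, where 5.13% of genes were called.

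After anti-CD3, Prg2 lay on the high side of spleen and lung and Ear1 and Ear2 on the low side, without a call. Over spleen 0 of 6 were called in limma (1.59% of genes), 3 at an unadjusted p under 0.05 (6.94%) and 0 with voom (1.7%). Prg2 and Epx had log2 fold changes of 2.61 and 1.25 and lay above all spleen libraries, as did 24.2% of genes. Prg3, Ear1 and Ear2 had log2 fold changes of -2.36, -4.46 and -2.69 and lay below them, as did 10.8% of genes. Without either control library Ear1 was called (adjusted p = 0.0413 and 0.0412, where 1.5% and 1.55% of genes were), and without the 4 libraries Prg2 was called higher and Prg3, Ear1 and Ear2 lower, where 5.93% of genes were called.

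Over lung, 0 of 6 were called in anti-CD3 with limma (2.52% of genes), 3 at an unadjusted p under 0.05 (7.03%) and 0 with voom (2.52%). Prg2, Epx and Ear6 had log2 fold changes of 3.18, 1.37 and 0.58 and lay above all lung libraries, as did 31.4% of genes. Prg3, Ear1 and Ear2 had log2 fold changes of -2.22, -4.45 and -3.23 and lay below them, as did 12.3% of genes. Ear1 was called when thymus replicate 3, spleen replicate 3 or either control library was omitted (adjusted p from 0.0307 to 0.0450), and Prg2 in the last 3 of these (adjusted p from 0.0239 to 0.0492), in fits that called from 2.42% to 5.56% of genes. With the 4 libraries left out, Prg2 and Epx were called higher and Prg3, Ear1 and Ear2 lower, where 8.86% of genes were called. These comparisons share the anti-CD3 libraries with each other and with the comparison against WT thymus.

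Ratios of granule genes within a library do not depend on how much granule mRNA that library holds in all. Prg2 exceeded Prg3 by 954, 338 and 146 times in WT thymus and by 1191 and 312 times after anti-CD3. It did so by 11.0, 9.89 and 6.38 times in WT spleen, by 5.57, 5.61 and 8.03 times in WT lung and by 25.8 and 16.7 times in Rag-KO + control. Every WT thymus and anti-CD3 library lay above every other library, and the 2 control libraries, far apart in level, were close in ratio.

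The same held for the ribonucleases. Ear6 exceeded Ear1 by 53.3, 45.6 and 2.50 times in WT thymus and by 7.81 and 21.4 times after anti-CD3. In the other groups Ear1 was the higher of the pair, with Ear6 over Ear1 between 0.277 and 0.361 in WT spleen, between 0.146 and 0.257 in WT lung and at 0.397 and 0.333 in Rag-KO + control. WT thymus replicate 3 lay nearest to these, and its 95% counting interval (1.94 to 3.24, exact binomial on 265 and 82 reads) stayed above them. Where Ear1 rested on 3 reads the interval was wide, from 18.0 to 261 in thymus replicate 1 and from 7.06 to 106 in anti-CD3 replicate 2. Ear6 over Ear2 likewise lay between 3.20 and 22.5 in WT thymus, at 4.33 and 1.58 after anti-CD3, and between 0.0844 and 0.512 elsewhere. These ratios were chosen after their values were seen and carry no test, and the intervals cover counting error only.

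**Figure D3:**
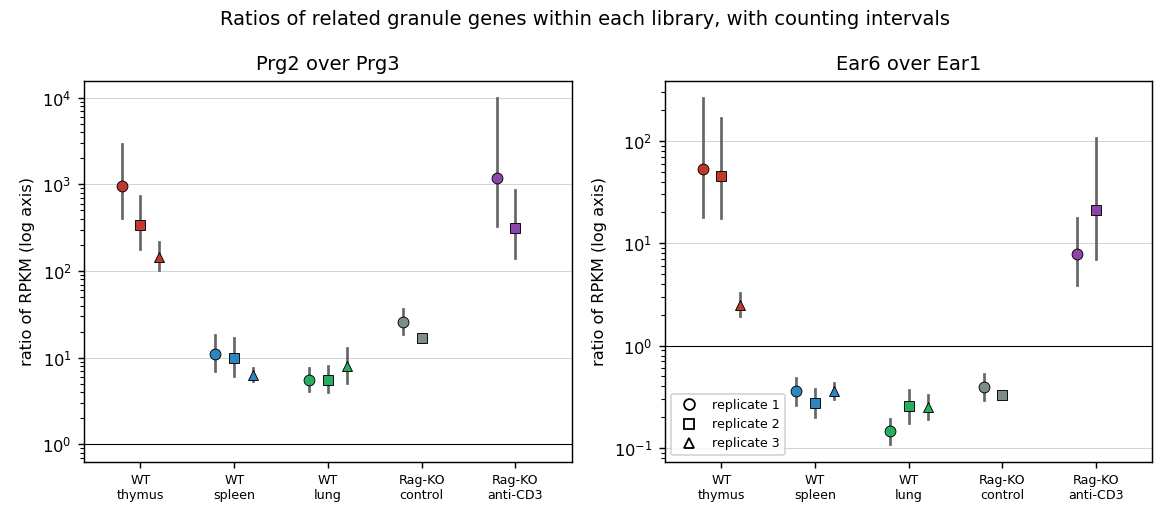
Ratio of the RPKM of Prg2 to Prg3 (left) and of Ear6 to Ear1 (right) in each library, on log axes, with 95% exact binomial counting intervals as lines and a horizontal line at 1. WT thymus and Rag-KO + anti-CD3 libraries lie above all libraries of WT spleen, WT lung and Rag-KO + control in both ratios.

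Rag-KO + control replicate 2, the Rag1-/- library, held the highest value of each of the 6 genes among all 13 libraries. Granule genes took 0.525% of its reads, against 0.0089% to 0.0819% in the others. Compared with replicate 1, the level was 19.4 times as high for Prg2, 30.1 times for Prg3, 44.6 times for Epx, 19.2 times for Ear1, 14.2 times for Ear2 and 16.1 times for Ear6. Among 8356 genes that reached 1 RPKM in both libraries, 32 (0.383%) were more than 10 times as high in replicate 2, with all 6 granule genes among them. The other 26 included Mpo, Elane and Prtn3, which encode neutrophil primary granule proteins, Ms4a3 and Ly6c2, which mark myeloid precursors and monocytes, and interferon-induced genes such as Ifit3 and Cmpk2. Library, genotype and mouse cannot be told apart in this comparison of 1 library with 1 other.

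Genes of neutrophil granules were high in some of these libraries, but did not follow the eosinophil granule genes throughout. Elane, the neutrophil elastase, was at 1002 RPKM in Rag-KO + control replicate 2, at 1000 RPKM in WT spleen replicate 3, at 94.8 RPKM in WT thymus replicate 3, at 18.6 RPKM in Rag-KO + control replicate 1 and at 0 in the other 9 libraries. Mpo, the neutrophil peroxidase, had 501, 99.5, 30.8 and 6.53 RPKM in the same order and 0 elsewhere. The summed level of the 14 neutrophil granule genes lay between 476 and 2589 RPKM in WT thymus, 399 and 27591 in WT spleen, 891 and 1475 in WT lung, 1302 and 6149 in Rag-KO + control and 185 and 306 after anti-CD3. All 14 were detected in the 4 libraries with Elane.

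The libraries with the most Elane, spleen replicate 3 and the Rag1-/- library, had nearly equal levels of it but not of the granule genes. Epx had 1 read in the former and 5779 in the latter, and Prg2 822 and 19307, while S100a8, an abundant neutrophil gene, was at 18344 and 1739 RPKM. WT lung replicate 3 had no Elane, and its Ear2 was the highest outside Rag-KO + control replicate 2. Cells had been enriched on beads for Siglec-F and sorted as CD11b+ Siglec-F+. The part of neutrophils in the granule gene values was not tested.

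**Figure D4:**
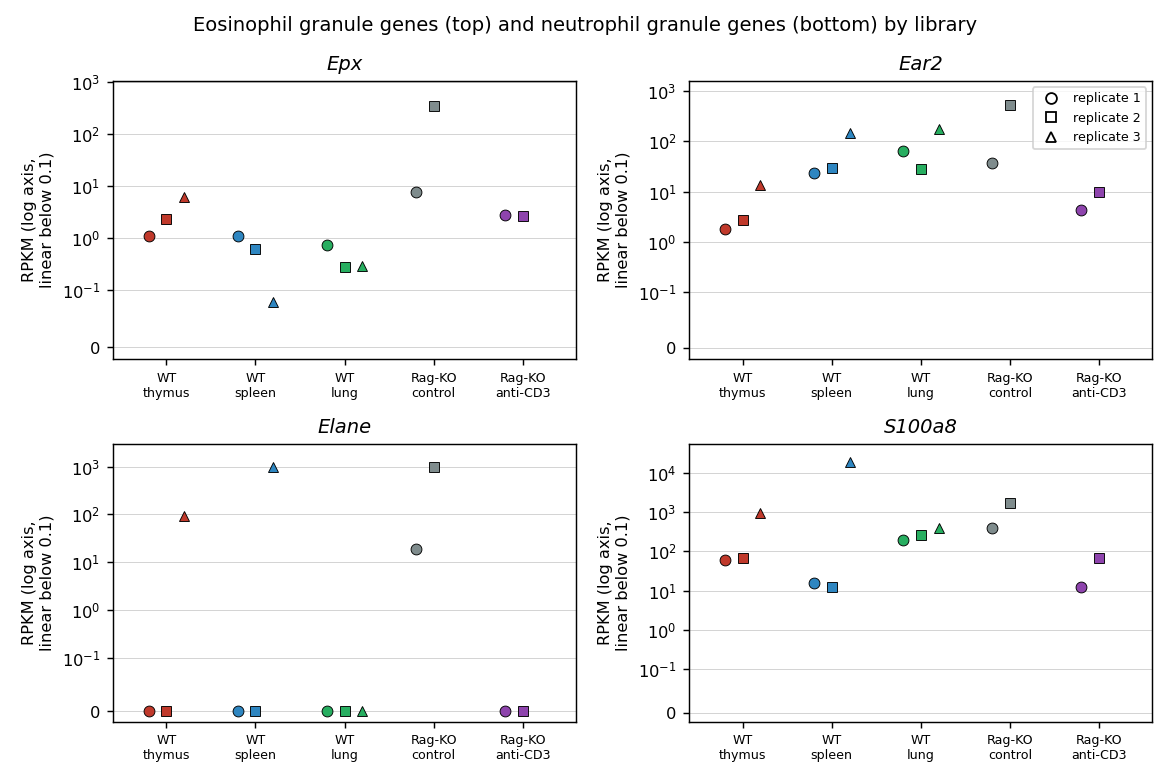
RPKM of Epx and Ear2 (top) and of the neutrophil genes Elane and S100a8 (bottom) in each library, on an axis that is logarithmic above 0.1 and linear below. Elane was detected in 4 libraries, of which spleen replicate 3 and the Rag1-/- library had like levels of it and the lowest and the highest Epx of all libraries.

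Lung libraries also differed in monocyte and macrophage genes, cells that are known to carry some Ear mRNA as well. The summed level of the 14 alveolar macrophage genes was 186, 23.5 and 469 RPKM in WT lung replicates 1, 2 and 3, where Ear2 was at 64.3, 28.9 and 178 RPKM. Both were highest in replicate 3 and lowest in replicate 2. Most of the sum came from Chil3, a chitinase-like protein, which was lowest in replicate 2 (17.2 RPKM) and highest in replicate 3 (355 RPKM). Chil3 stands in the neutrophil granule list as well. Marco, a scavenger receptor, was at 1.62, 0.189 and 0 RPKM and Fabp1 at 2.50, 0.989 and 0 RPKM, so that neither was highest in replicate 3. In spleen the sum lay between 11.1 and 401 RPKM. The summed level of the 10 patrolling monocyte genes was 1132 RPKM in lung replicate 3 and 221 and 210 RPKM in the other lung libraries, with Cd300e at 28.2, 0.166 and 0.698 RPKM in the same order. The part of these cells in the level of Ear2 was not tested. The 12 basophil and mast cell genes summed to between 2.40 and 34.9 RPKM in any library, with Mcpt8, a basophil protease, at 0 in 11 of the 13 libraries and at 1.75 RPKM at most.

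Genes of thymocytes were high in the same groups as the ratios. The summed level of the 20 thymocyte and T cell genes was 69.4, 40.5 and 16.5 RPKM in WT thymus and 40.4 and 34.8 RPKM after anti-CD3. It was 7.94 and 3.29 RPKM in Rag-KO + control and lay between 1.53 and 4.10 RPKM in spleen and between 1.37 and 1.96 RPKM in lung. WT thymus and anti-CD3 libraries thus lay above all others in this sum, as they did in Prg2 over Prg3 and in Ear6 over Ear1. Of 8 genes tested among WT organs, 7 were called higher in thymus over spleen (1.7% of all genes) and 7 over lung (1.91%). However, 6 of the 8 reached 1 RPKM in no spleen or lung library and passed the filter only through thymus.

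Of 12 tested with the Rag-KO libraries, 5 were called higher in anti-CD3 over spleen (1.24% of all genes) and 7 over lung (1.36%). In anti-CD3 over control 1 was called higher (0.0512%), and in control over WT thymus 2 were called lower (0.584%). All but Cd3d, Lat and Dntt reached 1 RPKM only in WT thymus and anti-CD3 libraries. They thus passed the filter through the groups where they were high, and these counts carry no weight as a result. Tcf7, a T cell transcription factor, was at 11.9, 7.17 and 1.75 RPKM in WT thymus and at 6.36 and 5.39 RPKM after anti-CD3, and below 1 RPKM elsewhere. Cd8b1, a chain of the CD8 coreceptor, was at 10.3, 4.25 and 1.57 RPKM in WT thymus, at 6.67 and 9.21 RPKM after anti-CD3 and at 0.142 RPKM at most elsewhere. Lck, a kinase of T cell receptor signalling, and Dntt, the terminal transferase of early lymphocytes, had the same split, except that Dntt was at 1.58 RPKM in Rag-KO + control replicate 1. Thy1 lay between 0 and 0.770 RPKM, and Trac, Trbc1 and Trbc2 were listed at 0 in all libraries. The part of thymocytes in the ratios and in the granule gene values was not tested.

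Genes called in the remaining lists were few. Over all genes, 2.29% were called in thymus over spleen, 3.24% in thymus over lung and 0.704% in lung over spleen. In Rag-KO + control over WT thymus 1.09% were called. Mmp9, a protease of neutrophil granules, was the 1 called among 10 neutrophil genes tested among WT organs, lower in thymus than in spleen (log2 fold change -3.02, adjusted p = 0.0109 in limma) and than in lung (-3.69, adjusted p = 0.0029), and it was higher in Rag-KO + control over WT thymus (3.39, adjusted p = 0.0059). Car4, a carbonic anhydrase and the 1 called among 3 alveolar macrophage genes tested, was higher in thymus over spleen (5.35, adjusted p = 0.0021) and over lung (2.69, adjusted p = 0.0409) and lower in Rag-KO + control over WT thymus (-4.60, adjusted p = 0.0147). Vcam1, an adhesion molecule and the 1 called among 7 macrophage genes, was lower in thymus (-1.50, adjusted p = 0.0302) and in lung (-2.40, adjusted p = 0.0058) than in spleen.

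Of 4 B cell genes tested among WT organs, Fcer2a and Blk were called lower in thymus and in lung than in spleen, at 1.16 to 2.54 and 1.25 to 1.62 RPKM in spleen and at 0.198 RPKM at most in the other WT organs. Over all genes, 2.29% were called in thymus over spleen and 0.704% in lung over spleen. Cd79a was called lower in Rag-KO + control over spleen, where 0.922% of all genes were called. Of 6 epithelial and endothelial genes, Scgb1a1, Sftpc and Eng were called lower in thymus than in lung (3.24% of all genes called) and higher in lung than in spleen (0.704%). Scgb1a1, a secretory protein of airway cells, had 18.2, 39.1 and 54.8 RPKM in the 3 lung libraries and no signal in the other 10, and Krt8, a keratin, was called higher in thymus over spleen (1.88, adjusted p = 0.0417 in limma). Fcer2a, Blk, Scgb1a1, Sftpc, Eng and Krt8 passed the filter through the organ where they were high. Cd9, a tetraspanin, was the 1 of 11 eosinophil surface and identity genes called in Rag-KO + control over WT thymus (-1.26, adjusted p = 0.0411 in limma), where 1.09% of all genes were called. No gene of the dendritic cell, patrolling monocyte or basophil and mast cell lists was called in any of the 10 comparisons, where from 0.0819% to 3.24% of all genes were called. The most abundant of each list were Cd74 and H2-Ab1, Nr4a1 and Adgre4, and Hdc and Gzmb.

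Other ribonuclease A genes were counted from a list of 24, which also held Rnh1, the ribonuclease inhibitor. From this list 5 genes were tested among WT organs, with Rnh1 as a member of the 5. Of these, 2 were called higher and 0 lower in thymus over spleen (with Ang, which passed the filter only through thymus) and likewise in thymus over lung. Over all genes, 1.7% and 1.91% were called higher. The list medians were 0.48 and 1.35 (log2) beside 0.25 and 0.20 over all genes. Rnase4, a secreted ribonuclease expressed in many tissues, was at 12.5, 11.4 and 10.9 RPKM in thymus, at 0.523, 1.42 and 1.03 RPKM in spleen and between 1.0 and 5.66 RPKM in lung. All thymus libraries were above the rest, and the log2 fold changes were 2.69 over spleen (adjusted p = 0.0109 in limma) and 1.93 over lung (adjusted p = 0.0381).

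Ang, angiogenin, was called over spleen (log2 fold change 1.71, adjusted p = 0.0462 in limma), and Rnase12 over lung (1.89, adjusted p = 0.0181). Ang reached 1 RPKM in no spleen or lung library, however. It passed the filter only through thymus, where it was highest, and its call carries no weight as a result. Rnase12 was also the 1 gene of the list called in Rag-KO + control over WT thymus, where it was lower (log2 fold change -1.76, adjusted p = 0.0379), at 12.3 and 13.4 RPKM in both control libraries against 53.4 and 62.7 RPKM after anti-CD3. Rnase2a, a ribonuclease close to the Ear genes, was at 3.86 and 1.27 RPKM after anti-CD3, at 0.225 RPKM in WT thymus replicate 3 and at 0 in the other 10 libraries. It reached 1 RPKM only after anti-CD3 and so passed the filter through the group where it was highest, and its calls over spleen and lung are not given as results. Rnh1, the ribonuclease inhibitor, lay between 101 and 284 RPKM and was not called in any of the 10 comparisons.

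Among 6 other haem peroxidase genes, the relatives of Epx, 2 passed the filter among WT organs. Ptgs1, a cyclooxygenase, was called higher in thymus over lung (log2 fold change 1.40, adjusted p = 0.0276 in limma), at 41.7, 32.2 and 27.3 RPKM against 14.2, 11.1 and 11.0 RPKM, and 0 were called in thymus over spleen or lung over spleen. Ptgs2, the inducible cyclooxygenase, was called in anti-CD3 over spleen (7.45, adjusted p = 0.0267). Cd34, a surface protein of progenitors and of mouse eosinophils, was at 188 to 250 RPKM in WT thymus, 2.73 to 20.7 RPKM in spleen, 3.21 to 5.50 RPKM in lung, 29.9 and 7.16 RPKM in Rag-KO + control and 180 and 155 RPKM after anti-CD3. Of 3 progenitor and cell division genes tested among WT organs, Cd34 was called higher in thymus over spleen and over lung (log2 fold changes 4.51 and 5.37), and Cdc20, a cell cycle gene, over lung (1.03, adjusted p = 0.0258 in limma). Cdc20 reached 1 RPKM in no spleen or lung library and passed the filter only through thymus, so its call carries no weight as a result. Cd34 was called lower in Rag-KO + control over WT thymus (-3.74, adjusted p = 0.0172 in limma). Both control libraries were thus low for Cd34 while they differed for the granule genes.

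Transcription factors and regulators of the granule programme were counted from a list of 12. Of 11 tested among WT organs, Cebpb and Trib1 were called higher in thymus over spleen (log2 fold change 2.33 for both, adjusted p = 0.0324 and 0.0213 in limma), 0 in thymus over lung, and Cebpb in lung over spleen (3.34, adjusted p = 0.0108). The shares of all genes called higher in these comparisons were 1.7%, 1.91% and 0.616%. The list median was 0.43 in thymus over spleen and 0.11 over lung. Cebpb encodes a C/EBP factor of myeloid cells and Trib1 a regulator of C/EBP protein stability. With Gata2, a GATA factor of progenitors, they were also called in Rag-KO + control and in anti-CD3 over WT spleen. No factor of the 12 tested was called among the thymus groups, where from 0.0819% to 1.09% of all genes were called. Cebpe, which is required for eosinophil granules to form, was at 225, 251 and 141 RPKM in WT thymus, at 183, 192 and 41.8 RPKM in spleen and at 180, 122 and 32.7 RPKM in lung, with overlapping groups. Gata1, the factor that defines the eosinophil lineage, lay between 39.2 and 88.1 RPKM in all libraries.

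Genes for granule packaging and release were not called in any of the 10 comparisons, 0 of 25 tested each time. Over all genes, from 0.0819% to 3.24% were called in these comparisons, so that 0 of 25 does not show the list to be unchanged. The list medians were 0.21 in thymus over spleen and 0.07 in thymus over lung. Srgn, the proteoglycan core that holds granule proteins, lay between 874 and 2652 RPKM, and Cd63, a granule membrane tetraspanin, between 316 and 908 RPKM. In WT thymus, Cd63 was at 719, 656 and 908 RPKM and elsewhere at 658 RPKM at most.

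Genes with the most similar pattern were sought among 4901 genes with a mean RPKM of at least 10 in at least 1 group, by Pearson correlation of log2(RPKM + 1) over the 13 libraries, which share their groups and include 1 library with extreme granule levels. Ear1 and Ear2 were among the 5 nearest of each other (r = 0.94), and Lbr, Adk and Phyh were near both (r from 0.92 to 0.97). Ear6 was nearest to Anxa3 and Psmb9 (r = 0.96 and 0.95), Prg2 to Hmgn2 and Cryzl1 (0.93 and 0.93), Prg3 to Hk3 and Ly6c2 (0.94 and 0.93), and Epx to Pgam1 and Hsd3b7 (0.95 and 0.93). Without Rag-KO + control replicate 2, Lbr, Adk and Ear2 were still among the 5 nearest to Ear1, Hmgn2 to Prg2 and Psmb9 to Ear6, and no gene stayed for Prg3 or Epx. Over those 12 libraries Prg2 and Ear6 correlated positively (r = 0.81) and Prg2 negatively with Ear1 and Ear2 (r = -0.73 and -0.71), as descriptions of these libraries.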

How the data were processed

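Eosinophil RNA was extracted with a micro column kit, amplified with SMART-seq v4 and sequenced on the Ion Proton. Reads were handled by the authors with CLC Genomics Workbench (mm10 in the submitters' processing notes), and the authors deposited the resulting RPKM values of 13 libraries as 1 table. The read mapping settings and gene annotation are not given in the sources used here. Multiplying each RPKM by a gene's exon length in GENCODE gave whole reads, within 0.01 of a read, for all 6 granule genes and for 9291 of 17067 detected genes (54.4%), from which read totals were taken. No columns were identical.

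The members and gene lists were chosen with earlier results of these data known. Genes that reached 1 RPKM in 3 or more libraries of the 9-library WT fit, or in 2 or more of the 13-library fit for Rag-KO comparisons, were tested with limma 3.58.1 (R 4.3.3) with an intensity trend on log2(RPKM + 1). The fit was tested on simulated data with 200 changed genes per comparison. It recovered from 53% to 75% of log2 changes of 2, and from 91% to 100% of log2 changes of 4. Simulated libraries varied independently of each other, so the test does not cover libraries that deviate together. All members were named, with up to the 4 most abundant called genes per other list, or its 2 most abundant when none was called. Elane, Mpo, Prtn3, S100a8, Ms4a3, Ly6c2, Ifit3, Cmpk2, Marco, Fabp1, Chil3, Thy1, Trac, Trbc1, Trbc2, Cd300e, Mcpt8, Cebpe, Gata1, Siglecf, Il5ra, Rnh1 and the Rag genes were chosen after their values were seen. Same-numbered WT libraries deviated together in all 9 pairs (r from 0.31 to 0.58, against -0.54 to 0.42 in 18 other pairs). All negative values came from pairs of a replicate 3 library with a library of another number. Replicates 1 and 2 of different organs correlated at 0.26 to 0.42. Same-numbered pairs had 0.31 to 0.42 for replicate 1 and 0.39 to 0.51 for replicate 2. The values set replicate 3 apart and do not clearly show pairing by number. The replicate block is given beside the WT results with that limit. The Rag-KO groups hold 2 libraries each, and their numbers were not taken as pairs. Alternatives covered pseudocount, filter, scaling, trend, fold limit, adjustment, samples, the study's Dunnett test and each library left out. A voom fit on recovered reads and the search for similar genes without Rag-KO + control replicate 2 were chosen after seeing the data. Sequences were aligned with Biopython 1.88, and other values were computed with scipy 1.17.1.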

Additional observations from a re-analysis of the deposited data

How the results depend on the processing

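Of 1485 fold changes of the 6 genes under the alternatives, 1311 stayed on their side of zero and of the threshold, 98 came to pass it, 37 no longer passed it and 39 changed sign, and where no value beside a result shows the cause it was not tested. Most of the 1311 were called neither in the main fit nor in the alternative. In WT thymus, the call of Prg2 was lost in 7 of 22 alternatives over spleen and in 0 of 22 over lung. The call of Ear1 below lung was lost in 14 of 22, and that of Epx in Rag-KO + control over lung in 16 of 26. The number of granule genes called in WT thymus over spleen was 0 with upper-quartile scaling, where 2.36% of all genes were called. It was 0 with all 13 libraries in 1 fit (2.86%), and 5 with no adjustment over genes (6.61%). In WT thymus over lung it was 1 with a pseudocount of 0.1 (2.67% of all genes), with no filter on low values (1.71%) and with RPKM of at least 5 (2.76%). It was also 1 with upper-quartile scaling (3.47%), with no intensity trend (3.17%), with all 13 libraries (4.64%) and with voom (3.01%). It was 3 with quantile normalization (4%), where Ear2 was called as well (adjusted p = 0.0439 in limma). With a pseudocount of 10 (1.31%) it was 3 with Ear6 (adjusted p = 0.0453 in limma), and it was 5 with no adjustment (7.77%). With no adjustment it was 4 in Rag-KO + control over WT thymus (5.1%), 4 in anti-CD3 over control (3.64%), 2 in control over spleen (7.25%), 3 in control over lung (6.29%), 3 in anti-CD3 over spleen (6.94%) and 3 in anti-CD3 over lung (7.03%). In control over lung it was 0 with a pseudocount of 10 (0.277%), with no filter (0.697%) and with RPKM of at least 5 (0.587%). It was 0 there with the 2 groups only (0.186%) and with voom (0.909%). In anti-CD3 over lung it was 4 with the 2 groups only (3.02%). Dunnett's test on the WT organs called 1 gene over spleen (Prg2) and 2 over lung (Prg2 and Ear6), where it called 5.66% and 8.03% of all 9096 genes.

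With the replicate block the count was 3 in WT thymus over spleen (3.33% of all genes) and 4 in thymus over lung (5.08%). The Rag-KO libraries share only a number, and for them it was 2 in control over WT thymus (Ear1 and Ear2, adjusted p = 0.0161 and 0.0047 in limma, 2.24%), 1 in anti-CD3 over control (Ear1, adjusted p = 0.0487, 0.399%), 1 in control over spleen (Epx, adjusted p = 0.0375, 1.89%) and 2 in control over lung (Prg2 and Epx, 2.38%). The block turned Ear6 in anti-CD3 over spleen to 0.23 and changed no other count.

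Without the 4 libraries that deviated together, the count was 4 in thymus over spleen, 5 in thymus over lung, 1 in lung over spleen, 6 in control over WT thymus, 3 in anti-CD3 over control, 1 in anti-CD3 over WT thymus, 2 in control over spleen, 2 in control over lung, 4 in anti-CD3 over spleen and 5 in anti-CD3 over lung. The same omission turned the log2 fold change in lung over spleen to 0.36 for Prg2, 1.07 for Prg3 and 0.43 for Ear1. It gave -2.02 for Prg2 and -1.63 for Ear6 in control over WT thymus, 1.11 for Prg2 and 0.27 for Ear6 in anti-CD3 over control, and 0.33 for Ear1 in anti-CD3 over WT thymus. It gave -0.024 for Ear1 in control over spleen, -0.21 for Prg3, -0.46 for Ear1 and -0.20 for Ear2 in control over lung, and 0.55 for Ear6 in anti-CD3 over spleen. With a pseudocount of 10, Epx in anti-CD3 over WT thymus had -0.036.

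Leaving out each library in turn gave counts of 0 to 2 in thymus over spleen, 1 to 4 in thymus over lung, 0 to 4 in control over WT thymus, 0 to 4 in anti-CD3 over control, 0 to 3 in control over spleen, 0 to 4 in control over lung, 0 to 1 in anti-CD3 over spleen and 0 to 2 in anti-CD3 over lung. A lone library left in a group was assumed to vary like the other groups. With 1 WT library left out, the fits called from 0.379% to 3.54% of all genes in thymus over spleen and from 0.99% to 7.29% in thymus over lung. They called from 0.401% to 2.42% in control over WT thymus and from 0% to 0.601% in anti-CD3 over control. The range was 0.586% to 1.69% in control over spleen and 0.629% to 3.73% in control over lung. It was 0.73% to 2.08% in anti-CD3 over spleen and 1.43% to 5.56% in anti-CD3 over lung. Log2 fold changes that changed sign in these omissions ranged, in lung over spleen, from -1.06 to 0.24 for Prg2, -0.66 to 0.81 for Prg3, -0.38 to 0.091 for Epx, -0.30 to 0.53 for Ear1 and -0.13 to 1.35 for Ear2. In control over WT thymus they ranged from -1.99 to 2.29 for Prg2 and -1.62 to 2.29 for Ear6, and in anti-CD3 over control from -3.16 to 1.11 for Prg2 and -3.64 to 0.27 for Ear6. In anti-CD3 over WT thymus they ranged from -0.39 to 0.48 for Epx, -1.37 to 0.33 for Ear1 and -0.031 to 1.21 for Ear2. In control over spleen they ranged from -0.095 to 4.64 for Prg3, -0.57 to 3.65 for Ear1, -0.34 to 3.46 for Ear2 and -0.31 to 3.60 for Ear6, in control over lung from -0.56 to 3.66 for Ear1 and -0.87 to 2.92 for Ear2, and in anti-CD3 over spleen from -0.40 to 0.55 for Ear6. The depth of 4765122 to 6431540 reads leaves Epx in spleen and lung, and Prg3 and Ear1 after anti-CD3, at counts where 1 read moves the value markedly.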
